A study of Mus musculus with 4 samples.

Results

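The genes described here are the cadherins with a plain number in their name (Cdh1, Cdh2 and so on) and the protocadherins that lie outside the large protocadherin gene clusters (Pcdh1, Pcdh7 and so on). They were found by name alone, from the symbol given to each array feature or its current name in RefSeq. This gave 33 genes measured by 69 features, out of 19909 named genes on arrays of 38880 features. They are 21 cadherins, 11 protocadherins and 1 gene, Cdhr1, that the probe table lists under its older name Pcdh21. Cdh12 and Cdh19 carry matching names too and were not analysed here. Not every member is a classical cadherin: the 11 protocadherins, Cdh13, Cdh16, Cdh17, Cdh23, Cdh26 and Cdhr1 belong to other branches of the superfamily.

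Cadherins are membrane proteins that bind their like on a neighbouring cell through a row of calcium-binding extracellular domains. Type I and type II classical cadherins hold the actin skeleton through catenins bound to their cytoplasmic tail, while the delta protocadherins signal through other tail motifs. In the developing cerebellum, combinations of type II cadherins and delta protocadherins mark stripes of Purkinje cells, and N-cadherin (Cdh2) acts in the migration of granule neurons.

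Cerebella of newborn C57Bl/6 mice (postnatal day 0) were compared between a Smarca5 conditional knockout (cKO) and wild type. Smarca5 encodes Snf2h, the motor of the ISWI chromatin remodellers, and the comparison asks which genes differ when it is deleted. Each of 4 arrays carried RNA of both genotypes, with cKO RNA in Cy5 on replicates 1 and 3 and in Cy3 on replicates 2 and 4. The 4 arrays drew on 3 RNA samples per genotype, because replicates 1 and 4 share a wild-type sample and replicates 3 and 4 a cKO sample. The labels name neither the Cre line that deletes Smarca5 nor the cells it acts in, and do not say whether an RNA sample is 1 animal or a pool. Every value below is a log2 ratio of cKO over wild type, so that a value below 0 means less RNA in cKO. That direction is likely but not stated in the files, and the log base is taken to be 2. In whole cerebella, fewer cells of a type and less RNA per cell cannot be told apart.

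The targeted gene checks the labels only in part. The feature listed as Smarca5 read -0.36, -1.16, -1.43 and -0.75 on replicates 1 to 4, below 0 on every array. A second feature, under a clone name that is now a synonym of Smarca5, read 0.01, 0.34, 0.10 and 0.47. Expression of Hoxb2 to Hoxb5 belongs to more posterior hindbrain than the cerebellum, and on replicate 1 these 4 genes had a median of 3.12, against -0.21, -0.66 and -0.42 on replicates 2 to 4. That array stands apart in this respect. Without it, 6 of the 33 members (Cdh9, Cdh10, Pcdh1, Pcdh8, Pcdh18 and Pcdh20) had a fitted ratio on the other side of 0, against 7 without replicate 2 and 5 without replicate 3. The count of 0 without replicate 4 was fixed in advance, because that array has no weight in the fitted ratio.

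No cadherin or nonclustered protocadherin passed the test for a difference between the genotypes. The limma fit over all genes called 0 of the 33 members at an adjusted p under 0.05, as it called 0% of all genes. At an unadjusted p under 0.05 it had 0 members, against a background of 1.56% of all genes. With the arrays fitted as independent it had 2 members, Pcdh15 and Cdh7, against a background of 5% of all genes, and again none after adjustment. The fitted ratios of the members ran from -0.45 to 0.41, with 17 above 0 and 16 below. Their median was 0.04, and that of all genes was 0.00. On replicates 1 to 4 the median over the members was 0.00, 0.01, -0.06 and -0.02, so that no array showed the group as a whole displaced. None of the 33 reached a fitted change of 1.5-fold in either direction, against a background of 7.64% of all genes. When an array was left out the ratios ran wider, up to 0.92 for Cdh15 without replicate 1 and down to -0.76 for Cdh9 without replicate 2.

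**Figure D1:**
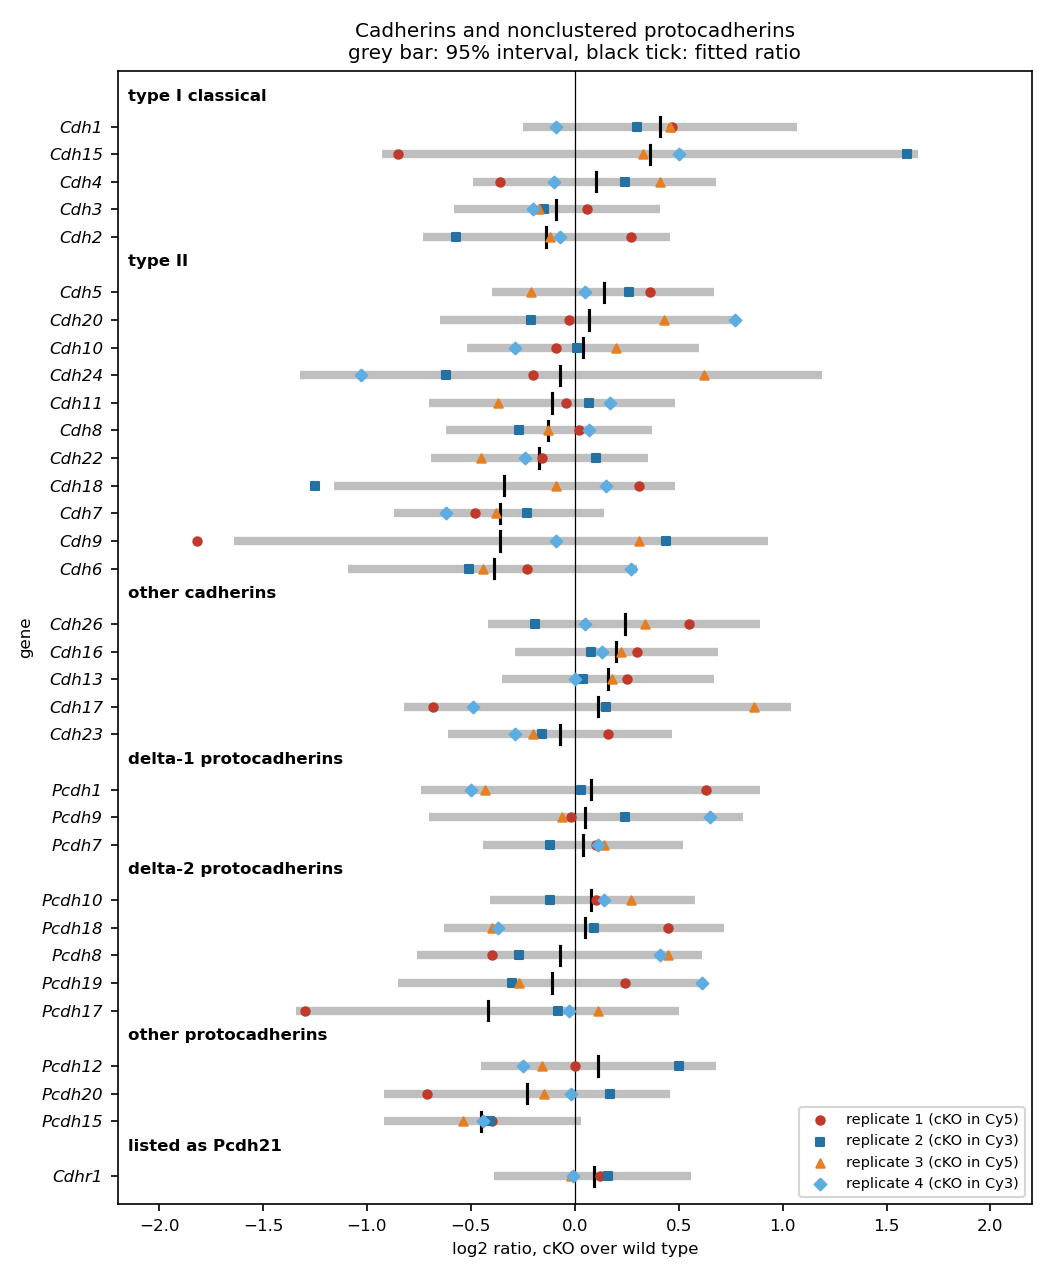
Log2 ratio of cKO over wild type (horizontal axis) for each of the 33 genes (vertical axis), grouped by type. Coloured points are the 4 arrays, black ticks the fitted ratio and grey bars its 95% interval. Every interval crosses 0, and the 4 points of most genes fall on both sides of 0.

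How small a change these arrays can exclude differs from gene to gene. A 95% interval of a fitted ratio reached from 0.47 to 1.29 to either side, with a median of 0.59 over the members. The interval lay wholly within a 2-fold change for 25 of the 33 genes, against 60.8% of all genes. It lay within a 1.5-fold change for 4, against 1786 of all 19909 genes. A missed threshold therefore does not show that a gene is the same in both genotypes, and for 8 genes a 2-fold change lies inside the interval. The ratios of 1 gene varied over the 4 arrays with an SD between 0.064 and 1.045, and a median of 0.33 over the members against 0.39 over all genes.

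Cdh7 and Pcdh15 were the members that lay below 0 on all 4 arrays, 2 genes against a background of 5.72% of all genes. Their promoters are shown because of this sign on every array, although 2 of the 33 members is near that background. The windows run from 250 bases before to 50 bases after the annotated start, from RefSeq on GRCm38.p6, in the direction of transcription. Capitals mark CAGGTG or its reverse complement CACCTG, the E-box form bound by the Snail and ZEB repressors that are known for acting on Cdh1.

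Cdh7 chr1:109982650-109982949 (+ strand): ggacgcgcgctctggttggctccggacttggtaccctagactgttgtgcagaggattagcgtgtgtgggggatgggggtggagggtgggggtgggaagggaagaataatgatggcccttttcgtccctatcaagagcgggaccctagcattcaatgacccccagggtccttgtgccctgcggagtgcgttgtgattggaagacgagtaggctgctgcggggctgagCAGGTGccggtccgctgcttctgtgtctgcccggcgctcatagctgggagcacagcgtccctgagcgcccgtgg
Pcdh15 chr10:73821617-73821916 (+ strand): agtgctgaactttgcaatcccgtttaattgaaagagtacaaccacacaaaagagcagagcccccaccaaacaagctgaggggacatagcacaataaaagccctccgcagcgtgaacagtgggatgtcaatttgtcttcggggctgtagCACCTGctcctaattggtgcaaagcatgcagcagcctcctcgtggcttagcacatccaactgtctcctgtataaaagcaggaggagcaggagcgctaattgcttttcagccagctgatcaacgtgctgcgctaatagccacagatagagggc

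A promoter window was at hand for 22 of the 33 members, and those of Cdh7, Pcdh7, Pcdh15 and Cdhr1 hold this E-box, 4 of the 22. Of all 32851 windows of 300 bases, 20.2% hold it on either strand. Such a match is a description of the letters and not evidence of a bound site. All 3 windows listed for Cdh7 hold it.

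Cdh7, a type II cadherin, was the only member with several features of which every feature lay below 0 on every array. Its gene mean was -0.48, -0.23, -0.38 and -0.62 on replicates 1 to 4. One feature read -0.33, -0.38, -0.10 and -0.94, and the other -0.63, -0.07, -0.66 and -0.29. Among the 6685 genes with several features, 0.703% had a single sign in this way. The fitted ratio was -0.36 ± 0.20 (SE; 95% interval -0.87 to 0.14; limma p 0.128, adjusted p 1). The ratio was nearly the same in both dye orientations, at -0.43 with cKO in Cy5 and -0.42 with cKO in Cy3. The name Cdh7 is also an old synonym of Cdh20 in RefSeq, and no sequence of these features was used here to tell the genes apart.

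Pcdh15, a cadherin of the tip links in hair cells of the inner ear, had the lowest p of the members. Its gene mean had the lowest SD over the arrays of the 33 members, at -0.40, -0.41, -0.54 and -0.44 on replicates 1 to 4. The 2 features behind that mean did not move together. One read 0.02, -0.02, -0.79 and 0.70, and the other -0.81, -0.79, -0.28 and -1.57. The fitted ratio was -0.45 ± 0.19 (SE; 95% interval -0.92 to 0.03; limma p 0.0605, adjusted p 1). By itself, one feature gave -0.26 and the other -0.63. Cdh23, the partner of Pcdh15 in the tip link, had a fitted ratio of -0.07 ± 0.22 (SE).

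Cdh16, a kidney cadherin, was the 1 member above 0 on all 4 arrays, against a background of 5.92% of all genes. It read 0.30, 0.08, 0.22 and 0.13 on replicates 1 to 4, with a fitted ratio of 0.20 ± 0.20 (SE; limma p 0.353). Its features disagreed in sign on 3 of the 4 arrays, as the plot of features by array shows. One read -0.12, 0.24, 0.41 and -0.36, and the other 0.72, -0.08, 0.03 and 0.62.

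**Figure D2:**
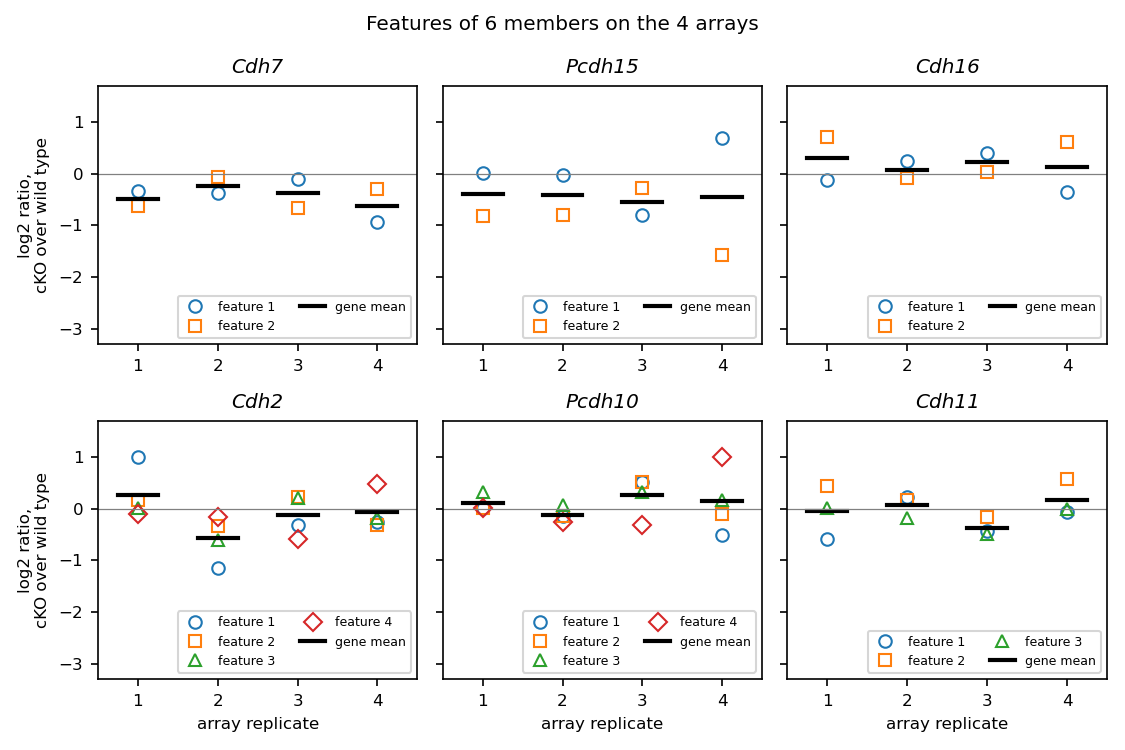
Log2 ratio of cKO over wild type (vertical axis) on the 4 arrays (horizontal axis) for the features of Cdh7, Pcdh15, Cdh16, Cdh2, Pcdh10 and Cdh11. Open symbols are single features and black bars the gene mean. In Cdh7 every feature lies below 0 on every array, while the features of Pcdh15 read 0.70 and -1.57 on replicate 4.

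Features of 1 gene agreed poorly in general, and this bears on every member. Among the 6685 genes with several features, the fitted ratios of the first and second listed feature correlated at r = 0.02 (Pearson, across genes, which are not independent replicates). Among the 23 members with several features the same r was -0.09. On an array, the features of a member lay a median of 0.76 apart, which is about as far as the gene mean moved between arrays (median range 0.74). Features of both signs stood behind 14 of the 23 genes. Of the 69 member features, 13 are listed under a clone or other name that is not a numbered Cdh or Pcdh name. Pcdh1 and Pcdh17 were measured only by such features. The 1 feature of Cdhr1, listed under the older name Pcdh21, is not among the 13.

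Type I classical cadherins had a median fitted ratio of 0.10 over 5 genes, 3 above 0 and 2 below, and none passed the test. Cdh1, E-cadherin of epithelia, was measured by 1 feature that read 0.47, 0.30, 0.46 and -0.09 on replicates 1 to 4. Its fitted ratio of 0.41 ± 0.27 (SE; 95% interval -0.25 to 1.07; limma p 0.179, adjusted p 1) was the highest of the members with all arrays fitted. It was 0.23 without replicate 1, where Cdh15 was higher, and 0.24 without replicate 3. Replicate 4, the array below 0, has no weight in this estimate, and with arrays fitted as independent the ratio was 0.29.

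Cdh2, N-cadherin of neural progenitors and neurons, read 0.27, -0.57, -0.12 and -0.07, with replicate 1 alone above 0. The fitted ratio was -0.14 ± 0.24 (SE; 95% interval -0.73 to 0.46), from 4 features that gave -0.29 to 0.01. Without replicate 1 it was -0.30, and without replicate 2 it was 0.08. Cdh4, R-cadherin of the retina and brain, read -0.36, 0.24, 0.41 and -0.10, evenly split about 0, with a fitted ratio of 0.10 ± 0.24 (SE).

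Cdh15, M-cadherin of muscle and of cerebellar granule cells, was among the most variable members. Its 1 feature read -0.85, 1.60, 0.33 and 0.50, with replicate 1 alone below 0. The fitted ratio of 0.36 ± 0.52 (SE; 95% interval -0.93 to 1.65) was 0.92 without replicate 1 and -0.26 without replicate 2. On replicate 1 a list of 5 muscle genes (Myod1, Myog, Acta1, Ckm and Des) had a median of 0.79. The list was split there, with Myod1, Myog and Des at 0.82, 0.79 and 1.99 and Acta1 and Ckm at -0.36 and -0.32. On the other arrays the median of the list was between -0.46 and -0.21. The measured granule cell progenitor markers, 7 of 8 listed, had medians of -0.48, -0.22, -0.12 and -0.64 on replicates 1 to 4. In the fit 6 of these markers lay below 0 and 1 above. The part of either cell type in the ratio of Cdh15 was not tested. Cdh3, the placental P-cadherin, had -0.09 ± 0.20 (SE).

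Type II cadherins had a median of -0.13 over 11 genes, 8 below 0 and 3 above, with none past the test. Their median on replicates 1 to 4 was -0.09, -0.21, -0.13 and 0.05. Besides Cdh7, the lowest p belonged to Cdh6, a cadherin of kidney and early brain, which read -0.23, -0.51, -0.44 and 0.27 from 1 feature. Replicate 4 was the only array above 0 there. The fitted ratio of Cdh6 was -0.39 ± 0.28 (SE; limma p 0.216), which was -0.23 with arrays fitted as independent.

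Cdh18, a cadherin of the central nervous system, read 0.31, -1.25, -0.09 and 0.15, so that replicate 2 lay far below the others. Its fitted ratio of -0.34 ± 0.33 (SE; limma p 0.344) turned to 0.11 without that array. The feature under the current name gave -0.63 and the clone feature -0.05. Cdh9, another type II gene on chromosome 15, depended in the same way on replicate 1, where its 1 feature read -1.82. Its fitted ratio was -0.36 ± 0.52 (SE), and 0.25 without replicate 1.

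Cdh8, which marks subsets of neurons in many brain regions, read 0.02, -0.27, -0.13 and 0.07, with 2 arrays on each side of 0. The fitted ratio was -0.13 ± 0.20 (SE; 95% interval -0.62 to 0.37). Cdh11, of mesenchyme and meninges, read -0.04, 0.07, -0.37 and 0.17 with a fitted ratio of -0.11 ± 0.24 (SE). Beside it, 7 marker genes of meninges and fibroblasts had medians of -0.16, 0.13, -0.35 and -0.19, and their part in the ratio of Cdh11 was not tested.

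Cdh5, VE-cadherin of the endothelium, read 0.36, 0.26, -0.21 and 0.05, with a fitted ratio of 0.14 ± 0.22 (SE; 95% interval -0.40 to 0.67). The 8 other endothelial marker genes had medians of -0.08, 0.05, -0.11 and -0.36 on these arrays, and 4 of the 8 lay above 0 in the fit. The remaining type II members, Cdh10, Cdh20, Cdh22 and Cdh24, had fitted ratios of 0.04, 0.07, -0.17 and -0.07. The ratio of Cdh24 had the wide interval of -1.32 to 1.19, with arrays from -1.03 to 0.62.

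The other cadherins had a median of 0.16 over 5 genes, 4 of them above 0 and none past the test. Cdh13, T-cadherin, which is held in the membrane by a lipid anchor and has no cytoplasmic tail, read 0.25, 0.04, 0.18 and 0.00 on replicates 1 to 4. The fitted ratio was 0.16 ± 0.21 (SE; 95% interval -0.35 to 0.67), with its 3 features between 0.01 and 0.35. Cdh26, an epithelial cadherin, read 0.55, -0.19, 0.34 and 0.05, higher in both arrays with cKO in Cy5 than in those with cKO in Cy3. Its fitted ratio of 0.24 ± 0.27 (SE; limma p 0.412) came from features that gave 0.53 and -0.06. It was 0.03 without replicate 1 and 0.09 without replicate 3. Cdh17, of the intestine, had a fitted ratio of 0.11 and arrays from -0.68 to 0.86.

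The delta-1 protocadherins had a median of 0.05 over Pcdh1, Pcdh7 and Pcdh9. Pcdh7 read 0.10, -0.12, 0.14 and 0.11, with replicate 2 apart from the other arrays. Its fitted ratio of 0.04 ± 0.20 (SE; 95% interval -0.44 to 0.52) had one of the narrowest intervals, although single features gave -0.16 to 0.38. Pcdh9, of neurons, read -0.02, 0.24, -0.06 and 0.65, higher in both arrays with cKO in Cy3, with a fitted ratio of 0.05 ± 0.31 (SE). Pcdh1 had 0.08 ± 0.33 (SE), with arrays from -0.50 to 0.63. The related gene Pcdh11x, whose name has a letter after the number and so is not a member, had -0.24 ± 0.29 (SE).

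The delta-2 protocadherins had a median of -0.07 over 5 genes. Pcdh10, which is found in subsets of Purkinje cells, read 0.10, -0.12, 0.27 and 0.14 and had a fitted ratio of 0.08 ± 0.20 (SE; 95% interval -0.41 to 0.58). Pcdh19, an X-linked gene known for an epilepsy of girls when mutated in humans, read 0.24, -0.30, -0.27 and 0.61, with a fitted ratio of -0.11 ± 0.30 (SE). Pcdh8 and Pcdh18 had fitted ratios of -0.07 and 0.05.

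Pcdh17, another delta-2 gene known from axon extension and synapses, read -1.30 on replicate 1 and -0.08, 0.11 and -0.03 on replicates 2 to 4. Its fitted ratio of -0.42 ± 0.37 (SE; limma p 0.302, adjusted p 1) rested on replicate 1 and was -0.01 without it. The 1 feature of Pcdh17 is listed under a clone name. Among the other protocadherins, the endothelial gene Pcdh12 had a fitted ratio of 0.11 ± 0.23 (SE) and Pcdh20 had -0.23 ± 0.28 (SE), with arrays from -0.71 to 0.17. Without replicate 1, Pcdh20 was at 0.03. With Pcdh15 these genes had a median of -0.23, which was 0.03 without replicate 1. Cdhr1, a photoreceptor cadherin, had 0.09 ± 0.19 (SE).

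The proteins that work with cadherins showed no called gene either. Of 12 catenins and cadherin linkers, 10 had a fitted ratio below 0 and 2 above, with a median of -0.08 and arrays at -0.05, -0.15, -0.12 and 0.13. The lowest p in that list belonged to Afdn at -0.47 ± 0.31 (SE), the actin-binding afadin of nectin junctions. Next came Ctnna1, alpha-E-catenin, at -0.25 ± 0.23 and Arvcf, a p120 family catenin, at -0.23 ± 0.27 (SE). Without replicate 1 Afdn was at -0.26 and Arvcf at -0.11. Beta-catenin (Ctnnb1) had -0.14 ± 0.24 and the neural alpha-N-catenin (Ctnna2) -0.01 ± 0.21 (SE); both were named after their values were seen.

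Large and atypical cadherins, with the member Cdhr1 among them, had a median of 0.17 over 15 of 19 listed genes, 11 above 0. That median was 0.07 without replicate 1 and -0.03 with the sign of the dye-flip arrays turned. By construction, that turn shrinks any ratio that is alike in both dye orientations. Fat3, a giant cadherin of neurons, had 0.36 ± 0.24, the receptor tyrosine kinase gene Ret 0.40 ± 0.30 and Cdhr3 0.45 ± 0.39 (SE). Without replicate 1 these ratios were 0.19 for Fat3, 0.19 for Ret and 0.01 for Cdhr3. Desmosomal cadherins had a median of 0.04 over 9 genes, with Dsg3 at -0.24, Dsg1c at -0.17 and Dsc2 at 0.37. Without replicate 1 that median was -0.23, with Dsg3 at -0.52 and Dsc2 at -0.24. Nectins had -0.09 over 5 genes, with Nectin2 at -0.26, Pvr at 0.25 and Nectin3 at -0.15. Without replicate 1 the nectin median was -0.21 and Pvr was at 0.12. None of these genes reached an unadjusted p under 0.05.

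Proteases that cleave cadherins had a median of -0.12 over 8 of 9 listed genes, 7 of them below 0. The exception was Mmp7, matrilysin, which read -0.01, 1.13, 1.22 and 1.12 on replicates 1 to 4. Its fitted ratio of 0.78 ± 0.35 (SE) did not pass (limma p 0.0667). It was 1.15 without replicate 1. With dye-flip columns turned it was 0.03, a setting that by construction shrinks a ratio alike in both dye orientations. Mmp9 had -0.39 and Adam17 -0.29, and without replicate 1 they were at -0.09 and -0.59. The 6 transcriptional repressors of Cdh1 had a median of 0.02, with Zeb2 at 0.26 ± 0.29, Twist1 at -0.09 ± 0.20 and Tcf3 at -0.05 ± 0.22 (SE). Without replicate 1 Zeb2 was at 0.02 and Tcf3 at 0.05.

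**Figure D3:**
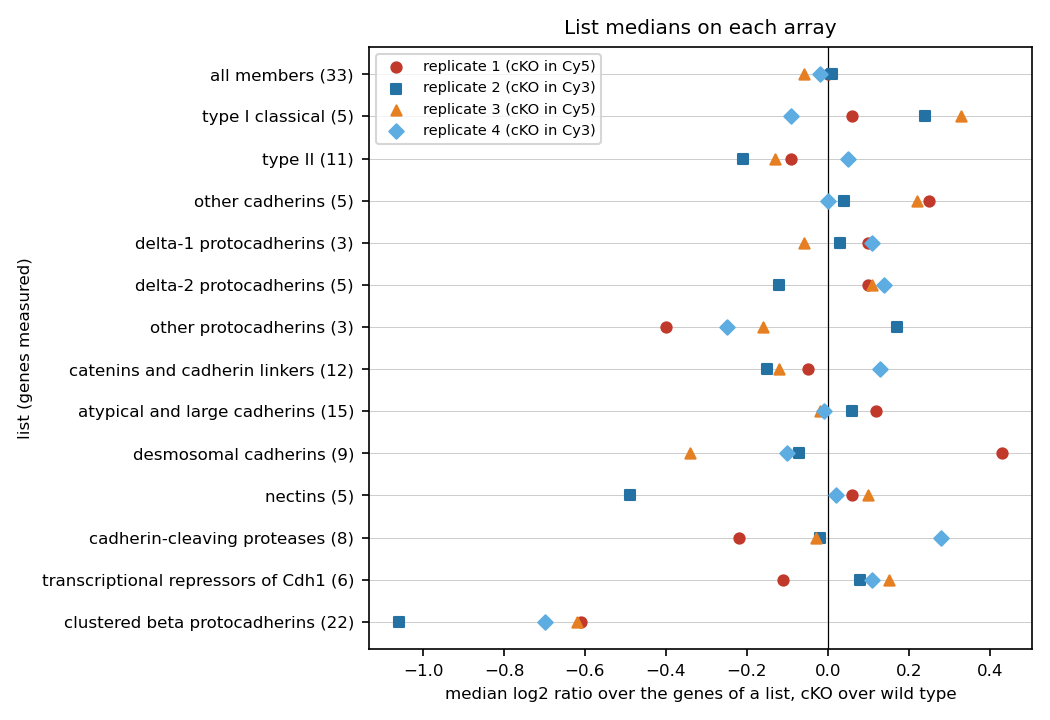
Median log2 ratio of cKO over wild type (horizontal axis) on each array for the members, their types, related gene lists and the clustered beta protocadherins (vertical axis, with the number of genes measured). Points are the 4 arrays. The members' medians lie between -0.06 and 0.01, and those of the beta protocadherins between -1.06 and -0.61.

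The clustered beta protocadherins, homophilic adhesion proteins of neurons, are set beside the members because their low ratios in these data were already known when the comparison was chosen. The median of the 22 beta genes was -0.61, -1.06, -0.62 and -0.70 on replicates 1 to 4, and that of the members between -0.06 and 0.01. The difference of the medians was -0.61, -1.07, -0.56 and -0.68, below 0 on 4 of 4 arrays, of which replicate 4 shares its RNA samples with replicates 1 and 3. This difference is a description. An exact sign-flip test on it gave p = 0.125, the smallest that 4 arrays allow, and p = 0.25 on replicates 1 to 3. The test could not decide, because of that floor and because the low beta ratios were known beforehand. Granule cell markers also had medians below 0 on every array, as given above for the progenitors. For 6 markers of differentiating granule neurons the medians were -0.19, -0.51, -0.21 and -0.56. Of these markers, Neurod1, Nhlh1 and Cntn2 had fitted ratios of -0.95, -0.72 and -0.37, and Reln, Gabra6 and Tiam1 of -0.01, 0.18 and 0.11. The part of granule cells in the ratios of the beta genes was not tested. The highest fitted ratio of a beta gene was 0.10, and the lowest ratio of a member was -0.45 against a beta median of -0.69. Beta genes are alike in sequence and may share signal on the array, which was not tested.

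**Figure D4:**
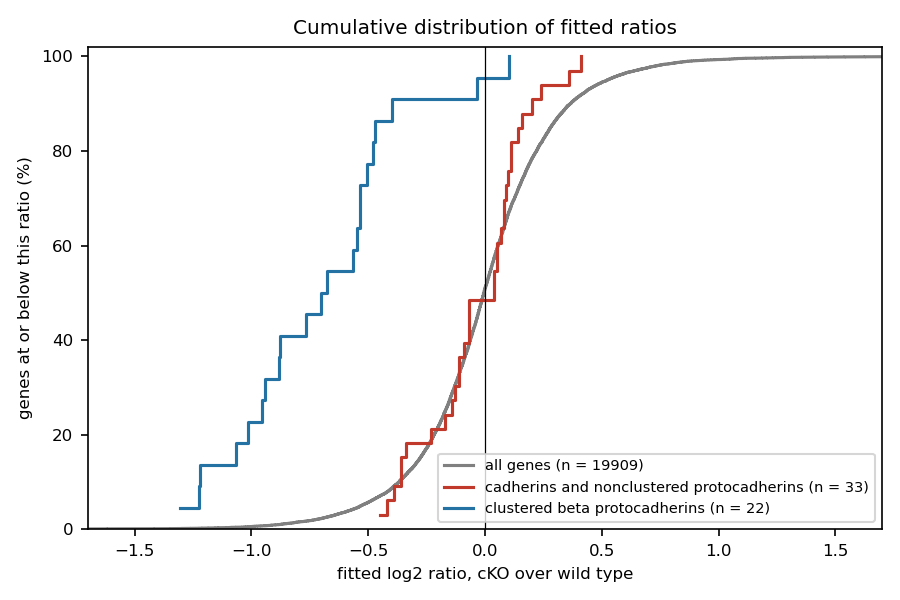
Share of genes (vertical axis, percent) with a fitted log2 ratio of cKO over wild type at or below the value on the horizontal axis. Lines are all 19909 genes, the 33 cadherins and nonclustered protocadherins and the 22 clustered beta protocadherins. The line of the members crosses that of all genes near 0, with medians of 0.04 and 0.00, while that of the beta genes lies to the left, with a median of -0.69.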

How the data were processed

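The deposited values are log ratios with a mean of 0 on each array, given per feature, and were taken as log2 ratios. Neither their log base nor how the authors normalized them is given in the sources used here. Were it a natural log, every fold would be too small. The array number limits precision, and no filter on dim features was possible. Features with a ratio past 4 in size on every array were sorted by sign. In 48 the ratio was below 0 with cKO in Cy5 and above 0 with cKO in Cy3, and in 4 the reverse. A single sign on all arrays was seen in 0. The 48 had median ratios of -7.02, 7.10, -6.42 and 6.60 on replicates 1 to 4, with signs fixed by this choice. Because such features changed sign with the dye orientation, the columns were taken as 1 genotype over the other. Per the labels, cKO RNA is channel 2 on every array, which makes cKO over wild type likely. Over features, arrays of 1 dye orientation correlated at 0.159 and 0.141, and arrays of opposite orientation between -0.208 and -0.121.

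Arrays were centred on their median, and features were averaged per current gene name (RefSeq, GRCm38.p6, used for names, and for promoter sequences with their coordinates). All 19909 genes were fitted with limma 3.58.1 in R 4.3.3 (intercept alone, two-sided), with Benjamini-Hochberg adjustment over all of them. A correlation of 0.5 was set between arrays with a shared RNA sample. This leaves replicate 4 a weight of 0 in the estimate, not in the residual variance. Across genes, arrays correlated between -0.087 and 0.047. The pairs that share RNA were at 0.012 (replicates 1 and 4) and -0.044 (replicates 3 and 4), far below the 0.5 that was set. The set value makes the fit cautious. With it 1.56% of all genes had an unadjusted limma p under 0.05, against 5% with arrays fitted as independent. The fit was tested on simulated data drawn with the same correlation of 0.5. That test cannot show whether this setting suits these arrays. P-values measure the spread between these arrays, which may be technical. Values on every array are given for the 8 members of lowest p and for a fixed list of members, and 3 genes of lowest p were named per related list. Members and lists were chosen with earlier results of these data known. Alternatives covered array correlation, turned and modelled dye, names, features, centring, error model and each array left out.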

Additional observations from a re-analysis of the deposited data

Results flagged for a closer look

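Among 74 values examined for an array far from the others, 5 stood apart, and chance would give about 1 in 20, or 3.7. Pcdh17 read -1.30 on replicate 1, with the other arrays between -0.08 and 0.11. Pcdh7 read -0.12 on replicate 2 and between 0.10 and 0.14 elsewhere. The protease gene Mmp7 read -0.01 on replicate 1, while its other arrays ran from 1.12 to 1.22. The median of the nectin genes was -0.49 on replicate 2, against 0.02 to 0.10. Hoxb2 to Hoxb5 had a median of 3.12 on replicate 1 and between -0.66 and -0.21 on the other arrays.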

How the results depend on the processing

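The count of called genes and of called members at an adjusted p under 0.05 was 0 under every alternative run, and 0 at an adjusted p under 0.1 in the reported fit. With independent arrays the smallest adjusted p was 0.0889, in a gene outside the members. At an unadjusted p under 0.05 limma had 0 members and 310 genes in all, and 2 members with independent arrays (995 genes). It had 1 member without replicate 1 (1.7% of all genes) and 1 without replicate 4 (4.69%). Without replicate 2 and without replicate 3 it had 0 members, against 0.698% and 1.6% of all genes. Members below 0 on every array numbered 2, against 5.72% of all genes, and with each feature by itself 5 of the 69 features did. Leaving out an array gave 3 to 5 members, but fewer arrays share a sign more readily. The share of all genes below 0 on every array was not taken under these alternatives. The members' median of 0.041 was -0.042 with independent arrays, -0.005 with a dye term, -0.007 with features by themselves and -0.007 with the median over features, and -0.031 to 0.041 when an array was left out, lowest without replicate 3. Cdh18 had 0.49 with dye-flip columns turned, and ran from -0.519 to 0.11 when an array was left out, highest without replicate 2. The lower feature of Cdh26 gave -0.063. The cause of these shifts was not tested. Dye-flip columns turned also moved Cdh15 to -0.707 and Cdh2 to 0.238. That setting reads the deposited columns as Cy5 over Cy3. If they are cKO over wild type, it shrinks a genotype difference by construction. The labels give 1 group, in which each array already sets both genotypes side by side. The fit of these ratios against 0 is therefore itself paired by array. With 4 arrays and no intensities, signal over background could not be weighed.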

Other observations

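Members were also grouped by chromosome, with no regard to the distance between them. The 8 members on chromosome 8 had a median ratio of 0.15, with 5 above 0 and 3 below. The 4 on chromosome 15 (Cdh6, Cdh9, Cdh10 and Cdh18) had -0.35, with 3 below 0, though Cdh9 and Cdh18 each rested on 1 array. The 6 on chromosome 14 had -0.07, the 3 on chromosome 18 had 0.08 and the 2 on chromosome 1 had -0.15.

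Of 38091 pairs of features listed for the same gene, 1 pair had equal ratios to both decimals on 3 arrays or more, and it belonged to Pcdh10. Both features read 0.02, -0.14 and 0.52 on replicates 1 to 3, and -0.51 and -0.10 on replicate 4.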
